A study of Bos taurus with 36 samples.

Results

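The transcripts of 10 clotting and fibrinolysis genes were followed in bovine fetuses on Day 42 of gestation: the vitamin K dependent factors F7, F9, F10 and F2 (prothrombin), the cofactor F5, the fibrinogen chains FGA, FGB and FGG, the inhibitor SERPINC1 (antithrombin) and PLG (plasminogen). They were chosen by gene symbol, through the Entrez identifiers of the deposited count table, and all 10 were found among its 35092 genes. The fetuses were 10 males weighing 1.253 to 1.69 g and are numbered from 1, the lightest, to 10, the heaviest. Fetuses 1 to 5 came from embryos of Day 7 placed in the uterus of a heifer on Day 7 of her cycle (ET_D7, synchronous), and fetuses 6 to 10 from embryos of the same age placed on Day 9 (ET_D9). Every ET_D9 fetus was heavier than every ET_D7 fetus, so weight and transfer group cannot be told apart in full. Libraries were made from the heart (9, without fetus 7), the gonads (9, without fetus 2; labelled fetal testicle), the liver (8, without fetuses 6 and 7) and the blood of the 10 carrying heifers (maternal blood), and each fetus or heifer gave 1 library per tissue.

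Clotting is a cascade of proteases in plasma. Factor VII with tissue factor activates factor X, factor IX provides a second route to factor X, and factor X with its cofactor factor V turns prothrombin into thrombin, which cleaves fibrinogen into the fibrin of the clot. Antithrombin blocks thrombin and factor X, and plasminogen gives the enzyme that dissolves fibrin. In the adult most of these proteins are made by hepatocytes, while factor V is also carried by platelets. The fetal liver is at the same time a site of blood formation, so its RNA comes from hepatocyte precursors and from blood cells together.

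The unit of level is CPM, the count of a gene after all libraries have been brought to a common total with edgeR's TMM method. Values that compare organs were scaled over all fetal organ libraries, and values that compare fetuses were scaled over the libraries of 1 tissue ("within the liver"), so the same library has a different CPM on each scale. CPM is not divided by transcript length, and levels of different genes are therefore not ranked against each other. Total counts ranged from 18231089 to 40812354 per library. The mitochondrial share was 17.1 to 57.3% per heart library, 16.3 to 36.8% per liver library and 7.23% or less elsewhere.

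The liver libraries of fetuses 1 and 2 differed by less than the sampling noise. Their median chi-square per gene was 0.109, against 0.455 for independent counts of 1 source and 7.09 for the next closest pair of livers. They were averaged and counted as 1 sample, which leaves 7 livers (ET_D7 4, ET_D9 3). The next closest pair in any tissue was the gonad libraries of fetuses 6 and 8, both ET_D9. Their median chi-square was 1.08, with 86.5% of genes within the sampling noise, and they were kept as 2 samples. All 10 hepatocyte markers and all 11 erythroid markers were higher in every liver library than in any heart or gonad library, and all 6 cardiomyocyte markers were highest in the heart. In the gonad libraries none of the 5 measured Sertoli markers stood above every other organ library, but 7 of 8 markers of mesonephros and kidney did. The maternal blood libraries of the heifers carrying fetuses 2 and 5 had cardiomyocyte marker sums of 3541 and 1184 CPM, against 18.5 CPM or less in the other 8. RNA was measured in bulk, so fewer cells of a type and less RNA per cell cannot be told apart.

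The clotting transcripts were abundant in the liver at Day 42. Of the 10 genes, 9 were higher in the liver than in heart and gonads alike, and F5 was the exception (edgeR's quasi-likelihood test, adjusted p under 0.05 against each organ; over all 25095 genes tested, 23.0% were called by the same rule). F9 had 0 counts in heart and gonads and entered the test through the liver alone, so its place among the 9 is a description. In these 9 genes every liver sample lay above every heart and gonad library, and the share of all genes so separated is not given here. Against the organ that came closer to the liver, the log2 fold change had a median of 9.78 over the 10 genes and of -0.51 over all genes tested. The median of 9.78 includes F9, whose value of 13.56 rests on 0 counts in both organs. Without F9 the median was the value of F2, 8.41. Together the 10 genes held 0.389 to 0.741% of the counts of a liver library, 0.0016 to 0.0037% of a heart library and 0.0022 to 0.0031% of a gonad library.

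**Figure D1:**
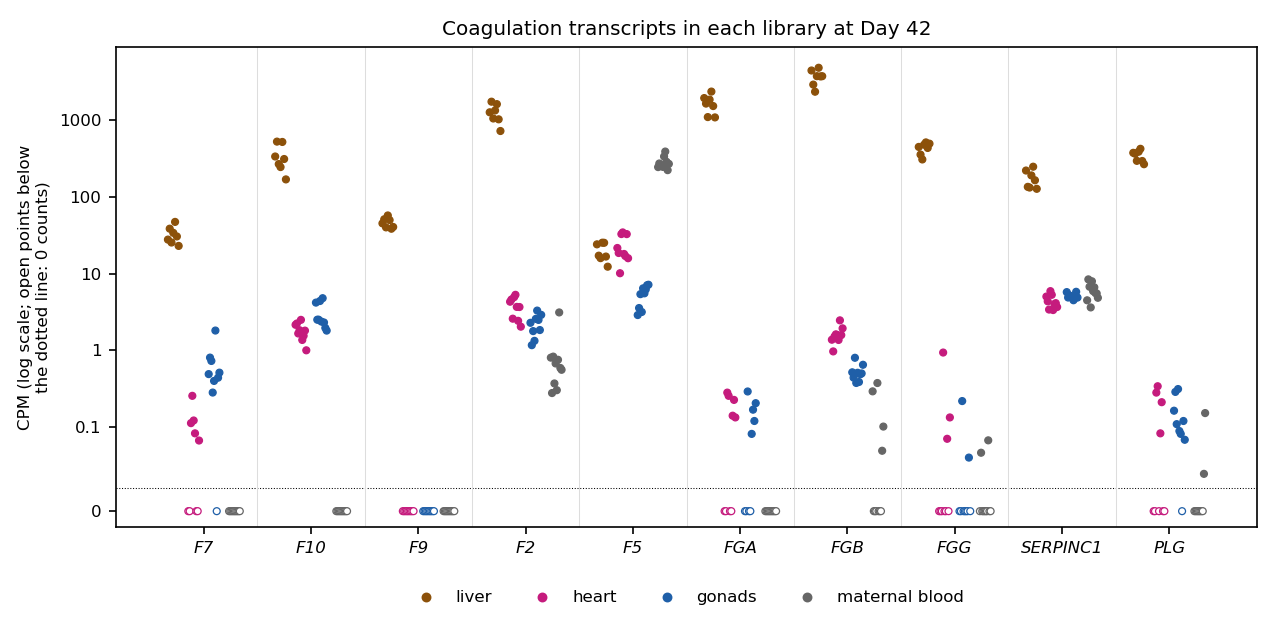
CPM of each clotting gene (x axis, ordered by role) on a log scale, with 1 point per sample, in the liver (7), heart (9), gonads (9) and maternal blood (10). Open points under the dotted line are libraries with 0 counts. Organ values share 1 scaling, and blood libraries were made with another kit and scaled separately, so blood is not to be read against the organs. F5 is the gene whose liver points (12.3 to 25.3 CPM) overlap those of the heart (10.1 to 34.4 CPM).

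F2, the precursor of thrombin, ranged from 723 to 1743 CPM over the 7 livers with a median of 1268 CPM, from 2.03 to 5.29 CPM in the heart and from 1.17 to 3.30 CPM in the gonads. Its log2 fold change was 8.41 over the heart (SE 0.283, adjusted p = 2.73e-19, edgeR) and 9.16 over the gonads. The liver values were separate from both organs, and every heart and gonad library still held 61 to 170 counts of F2. Between the other organs the heart was higher, at 3.72 ± 1.17 CPM against 2.18 ± 0.711 CPM (SD, n = 9 each, log2 fold change 0.76, adjusted p = 0.00518, edgeR). Heart and gonads differed at adjusted p under 0.05 for 47.0% of all genes tested, and for 5 of these 10.

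F7, the protease that starts the cascade with tissue factor, had 23.0 to 47.2 CPM in the liver (median 30.5 CPM). In the heart 4 of 9 libraries had 0 counts of F7 and none had more than 6. In the gonads F7 reached 0.607 ± 0.509 CPM (SD, n = 9), which is 1.88% of its liver mean, with 0 counts in fetus 8 and 89 in fetus 7. F7 was lower in the heart than in the gonads by a log2 fold change of -2.95 (SE 0.618, adjusted p = 0.000246, edgeR).

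F10, where both routes of the cascade meet, had 339 ± 136 CPM in the liver (SD, n = 7, lowest 169 and median 312 CPM), 1.79 ± 0.462 CPM in the heart and 2.98 ± 1.14 CPM in the gonads (SD, n = 9 each). It was likewise lower in the heart than in the gonads (log2 fold change -0.76, adjusted p = 0.00969, edgeR), and the groups overlapped. F10 lies between F7 and PROZ on chromosome 12 of the bovine RefSeq annotation (ARS-UCD2.0).

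F9, the factor whose loss causes haemophilia B, was the member with no reads outside the liver. The 7 livers held 38.5 to 57.3 CPM (median 45.2 CPM, 564 to 1747 counts), and all heart, gonad and maternal blood libraries held 0 counts. With 3 counts over a group as the limit that a count of 0 allows, the liver was at least 3213-fold higher than the heart and at least 7226-fold higher than the gonads. These limits cover counting error alone, and are too high if both mates of a read pair were counted, which was not tested.

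The fibrinogen chains, which thrombin turns into fibrin, were higher in the liver by log2 fold changes of 13.58 (FGA), 11.62 (FGG) and 11.15 (FGB) over the nearer organ, the heart. FGA had 1087 to 2361 CPM in the liver (median 1646 CPM), FGB 2351 to 4826 CPM (median 3748 CPM) and FGG 308 to 513 CPM (median 448 CPM). The heart mean was 0.0070% of the liver mean for FGA, 0.0435% for FGB and 0.0292% for FGG, and the gonad mean was 0.0058%, 0.0141% and 0.0066%. FGA had 0 counts in 4 of 9 heart and 4 of 9 gonad libraries, and FGG in 6 and 7 of them, whereas FGB had 16 to 70 counts in every heart and 19 to 44 in every gonad library. FGB was higher in the heart than in the gonads (log2 fold change 1.63, SE 0.189, adjusted p = 4.20e-08, edgeR), and no heart library was as low as any gonad library. FGG rested on 1 library in the heart: fetus 4 held 22 of the 28 counts, and without that fetus the log2 fold change of liver over heart was 13.63.

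SERPINC1, the main inhibitor of thrombin, had the smallest distance between liver and the other organs among the 9 genes. Its level was 128 to 248 CPM in the liver (median 165 CPM), 4.35 ± 0.888 CPM in the heart and 5.09 ± 0.432 CPM in the gonads (SD, n = 9 each), with at least 72 counts in every library. The heart mean was 2.50% and the gonad mean 2.92% of the liver mean, whereas the plasma protein AFP, measured the same way, stood at 0.0092% and 0.0166%, ALB at 0.0646% and 0.125% and TTR at 0.0493% and 0.0141%. SERPINC1 was 5.33 log2 units higher in the liver than in the heart (SE 0.157, adjusted p = 3.09e-20, edgeR) and 5.10 log2 units higher than in the gonads. Heart and gonads overlapped and the adjusted p between them was 0.155 (edgeR).

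PLG, the precursor of plasmin, had 267 to 424 CPM in the liver (median 365 CPM). No heart library held more than 10 counts and no gonad library more than 20, and 5 of 9 hearts had none. Its log2 fold change was 11.43 over the heart and 11.25 over the gonads (adjusted p = 1.22e-17 and 4.40e-18, edgeR).

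F5, the cofactor of factor X, behaved differently from the other 9. It had 12.3 to 25.3 CPM in the liver (median 17.1 CPM), 10.1 to 34.4 CPM in the heart (median 18.6 CPM) and 2.88 to 7.16 CPM in the gonads (median 5.53 CPM). The range of the heart enclosed that of the liver, and every gonad library was below both. Liver and heart differed by a log2 fold change of -0.19 (SE 0.246, adjusted p = 0.528, edgeR), against 1.89 for liver over gonads (SE 0.248, adjusted p = 1.85e-07) and 2.08 for heart over gonads (adjusted p = 3.43e-08). In F5 the annotation places only a transfer RNA gene inside the span of the gene.

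Other genes of clotting and fibrinolysis, listed by role, showed how far the liver pattern extended. Of 33 such genes, 17 were above both organs in the liver, 4 were below both (2 without fetus 3), 11 were neither and SERPIND1 (heparin cofactor II) was listed at 0 in every library. Over all genes tested, 23.0% were above both organs and 18.9% below both. All 4 contact genes (F11, F12, KLKB1, KNG1), both subunits of factor XIII (F13A1, F13B) and 5 of the 6 inhibitors were higher in the liver. So were 3 of 7 fibrinolysis genes, 2 of the 5 vitamin K dependent genes and enzymes (PROC and PROZ) and 1 of the 4 cofactor genes (VWF). The largest of these differences were in SERPINA1 (antitrypsin), with a log2 fold change of 13.55 over the nearer organ, and HRG (histidine-rich glycoprotein), with 13.11. HRG averaged 0.0125 CPM in the heart and 0.0044 CPM in the gonads, under the level of 3 counts over the group (0.0143 and 0.0064 CPM). The size of its difference is therefore uncertain, and it was 12.84 to 14.47 without each fetus in turn.

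GGCX and VKORC1, the enzymes of the vitamin K cycle that all vitamin K dependent factors need, were not among the liver-higher genes. GGCX had 3.93 CPM in the liver on average, 5.09 CPM in the heart and 15.9 CPM in the gonads, and VKORC1 had 11.1, 9.76 and 6.65 CPM. LMAN1 and MCFD2, which carry factors V and VIII out of the endoplasmic reticulum, were not called higher either. The endothelial receptors THBD (thrombomodulin) and PROCR were both lower in the liver than in both organs, as were TFPI, the inhibitor of tissue factor, and PLAT, the tissue plasminogen activator. PLAT had the lowest value of the list, with a log2 fold change of liver over heart of -3.26 (7.85 CPM against 75.2 CPM), followed by THBD with -2.46.

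**Figure D2:**
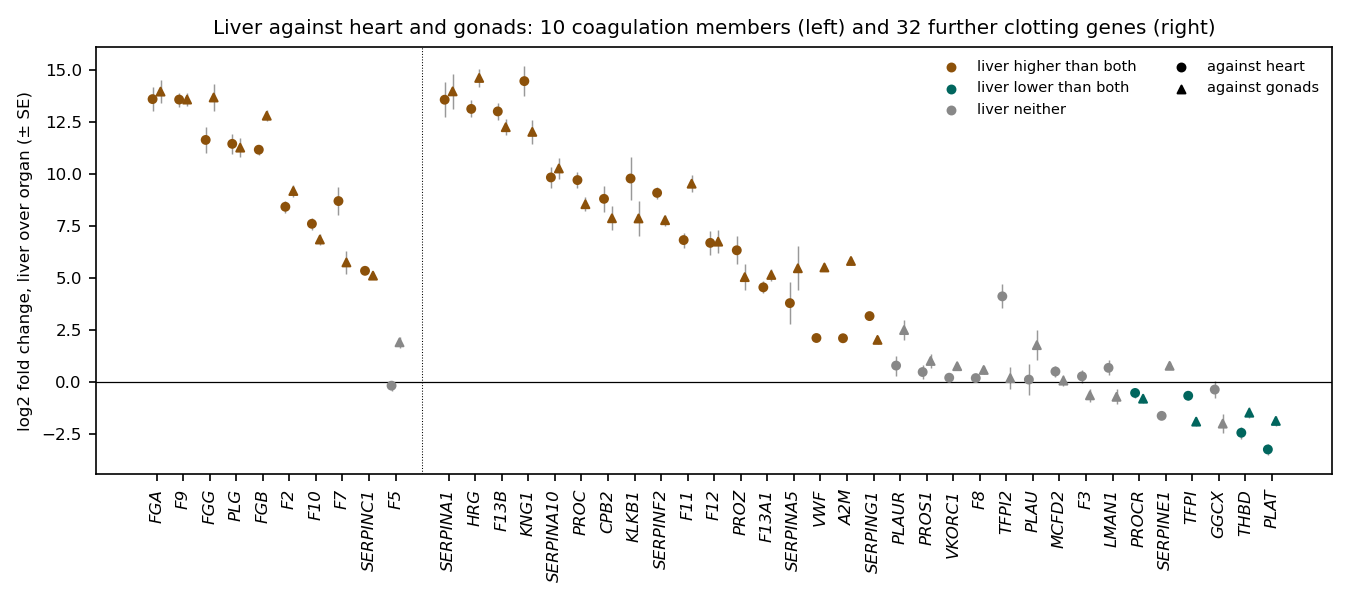
Log2 fold change of the liver over the heart (circles) and over the gonads (triangles) with its standard error, for the 10 members (left of the dotted line) and the 32 further clotting and fibrinolysis genes tested (right), each ordered by the smaller value. Brown marks genes whose liver level exceeded both organs (9 and 17), green genes lower than in both (0 and 4) and grey the rest. F9, at 0 counts in heart and gonads, is shown as a description.

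The next question was whether the liver level of these genes differed between fetuses with weight or transfer. It did not pass the test for any of them. With a spline of fetal weight 0 of 10 genes were called (1.71% of 16211 genes were), with a linear term 0 of 10 (1.59% of genes) and between the transfer groups 0 of 10 (2.20% of genes), all with edgeR's quasi-likelihood test. These backgrounds rest on every ET_D7 liver. Without fetus 3, 4 or 5, 0 genes were called for the spline or the slope and 1 to 4 between the groups. Without the livers of fetuses 1 and 2 together, 0 genes were called for the spline, 9 for the slope and 38 between the groups. The count over the 10 genes was also 0 at an unadjusted p under 0.05 in each of the 3 tests and 0 with DESeq2. The interval of the slope allows for changes of some size. The 95% interval was -0.37 to 0.04 log2 units per 0.1 g for F2, -0.33 to 0.06 for F5 and -0.08 to 0.18 for FGG.

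The fitted slope was negative in 8 of 10 genes, with a median of -0.08 log2 units per 0.1 g against -0.01 over all genes, and positive in FGB and FGG. The same 8 genes had a negative difference of ET_D9 from ET_D7. The signs rested on fetus 10: without it 4 of 10 slopes and 4 of 10 group differences were negative. Without fetus 5, 5 of 10 group differences were negative. Within the liver F9 was 33.9 to 45.7 CPM in the 4 ET_D7 samples and 29.8 to 33.6 CPM in the 3 ET_D9 samples (log2 difference -0.31, SE 0.176, 95% interval -0.70 to 0.09). The difference was -0.16 without fetus 5, and -0.36 to -0.20 without any other 1 fetus.

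**Figure D3:**
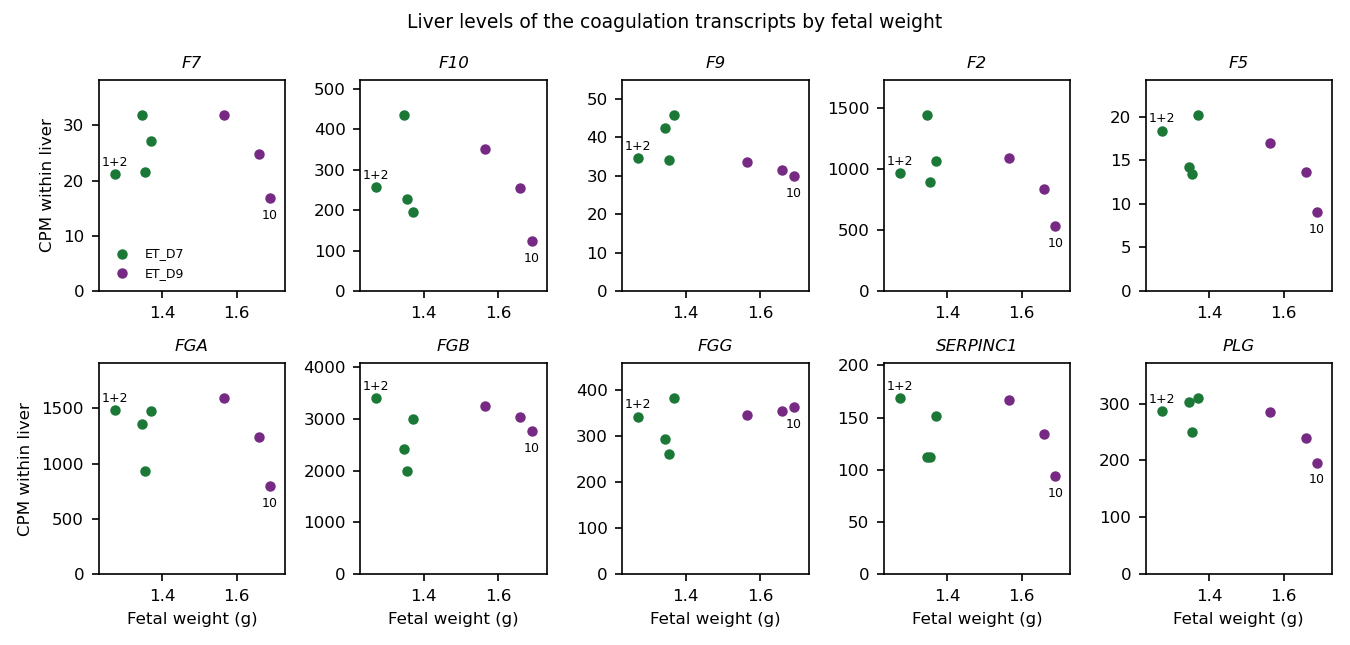
CPM within the liver (y axis, from 0) against fetal weight in g (x axis) for each gene, with 1 point per liver, coloured by transfer group (ET_D7 4, ET_D9 3). The merged sample of fetuses 1 and 2 and fetus 10 are marked. Fetus 10 is the lowest point for every gene but FGB and FGG.

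Fetus 10, the heaviest, had the lowest level of 8 of the 10 genes. F2 within the liver was 531 CPM in fetus 10 and 836 to 1442 CPM in the other 6 samples. F10 was 124 CPM in fetus 10 against 195 to 435 CPM, and SERPINC1 93.7 CPM against 112 to 169 CPM. The summed hepatocyte markers were also lowest in fetus 10, at 27610 CPM against 33136 to 50686 CPM, and the summed erythroid markers highest, at 5769 CPM against 3329 to 5153 CPM. Their part in the result was not tested.

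The exceptions were FGB and FGG, which fetus 4 had lowest (1991 and 261 CPM within the liver). In fetus 10 FGB was 2755 CPM and FGG 363 CPM, the latter above the levels in all livers but that of fetus 5 (382 CPM). The chains of 1 protein thus stood in another proportion in fetus 10: FGB had 3.45 counts per count of FGA there and 1.77 to 2.43 in the others, and FGG 0.455 against 0.216 to 0.284. The highest levels were spread over 4 samples. Fetus 5 was highest for F5, F9, FGG and PLG, fetus 3 for F2, F7 and F10, the merged sample of fetuses 1 and 2 for FGB and SERPINC1, and fetus 8 for FGA.

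The spread between livers that counting does not explain (edgeR's biological coefficient of variation) was 19.3% for PLG and 21.0% for FGB, with FGG below both, and 34.0% for F10 and 33.5% for F5 at the other end. The median over the 16211 genes tested in the liver was 39.1%, above all 10. That median covers genes of every level, and genes of like level were not compared. The same median was 25.5% in the heart and 22.2% in the gonads.

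FGA, FGB and FGG lie next to each other on chromosome 17, and their proteins join in equal numbers. Over 7 livers Pearson's r of the log2 levels was 0.60 for FGA with FGB (exact permutation p = 0.138, two-sided, rho = 0.71, p = 0.0881) and 0.29 for FGA with FGG (exact p = 0.582, rho = 0, p = 1). It was 0.84 for FGB with FGG (exact permutation p = 0.0226, adjusted over the 3 pairs 0.0679), but rho was 0.32 (exact p = 0.498), and r was -0.67 once fetuses 3 and 4, at the greatest distance from the FGB median, were left out. That relation therefore rests on those samples. Leaving out fetuses 10 and 4, at the greatest distance from the FGA median, gave an r of 0.45 for FGA with FGB and of 0.21 for FGA with FGG.

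The proportion of the chains differed between organs more than between livers, a comparison made after the counts had been seen. FGB made up 63.8 ± 3.53% of the counts of the 3 chains in the liver (SD, n = 7, range 59.3 to 70.3%), 89.9 ± 13.7% in the heart (SD, n = 9) and 85.5 ± 14.8% in the gonads (SD, n = 9). Each organ differed from the liver with p = 0.0014 in an exact permutation test (two-sided, 2 comparisons), on sums of 402 chain counts in the heart and 306 in the gonads. The test took the libraries as independent, although most of the fetuses are the same in each organ. Fetus 4 was the exception in both organs, with 57.6% in the heart (95% Wilson interval 45.6 to 68.8%) and 61.1% in the gonads (49.6 to 71.5%). Its gonad library also had the highest sum of hepatocyte markers of that organ (22.1 CPM against 7.63 to 15.6 CPM), and its heart library held 50.3 CPM in a range of 28.9 to 62.3 CPM. The part of liver RNA in these counts was not tested.

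**Figure D4:**
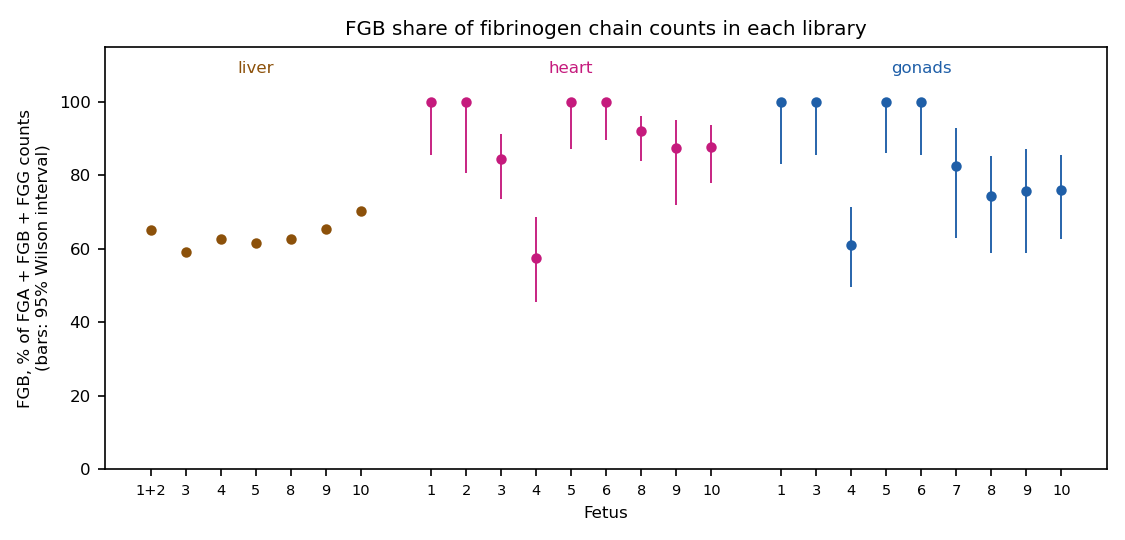
FGB counts as a percentage of the FGA, FGB and FGG counts in each library (y axis), by fetus (x axis), for the liver, heart and gonads. Bars are 95% Wilson intervals, which cover counting error alone, are too narrow if both mates of a pair were counted, and are smaller than the points in the liver. All but fetus 4 lie above the highest liver value of 70.3% in both heart and gonads.

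In the heart 5 of the genes had enough counts to test between fetuses (F2, F5, F10, FGB and SERPINC1). None was called with weight (background 6.78% of 16250 genes) or between transfer groups (background 0.0492%) by edgeR's quasi-likelihood test, and DESeq2 also called 0. The backgrounds rest on single hearts: without fetus 1, 2, 4, 5, 8 or 10 no gene had a slope, without fetus 3 there were 3947 such genes and 2846 between the groups, and without any other 1 fetus 0 to 5 genes differed between the groups. None of the 5 had an unadjusted p under 0.05. F5 varied most between hearts (biological coefficient of variation 35.8%). Within the heart it was 7.71 CPM in fetus 3 and 24.4 to 25.7 CPM in fetuses 4, 5 and 9, and the transfer groups overlapped.

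In the gonads 6 genes were tested and none was called with weight (background 0, and 5.62% of genes at an unadjusted p under 0.05) or between transfer groups (background 0.354% of 17809 genes, and 18.5% at an unadjusted p under 0.05) by edgeR. The 63 genes behind the group background became 0 without fetus 5, 6 or 10 and 386 without fetus 9. At an unadjusted p under 0.05, 1 gene passed with weight (F5) and 2 between the groups (F5 and F2). DESeq2 called F5 between the groups, where it called 940 genes in all, and none of the 6 with weight.

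F5 within the gonads was 4.39, 5.18, 5.62 and 8.33 CPM in the 4 ET_D7 fetuses and 9.04, 10.4, 10.5, 11.2 and 11.7 CPM in the 5 ET_D9 fetuses. All ET_D9 values lay above all ET_D7 values, and the share of all genes so separated is not given here. Fetuses 6 and 8, whose gonad libraries were close to each other, had 10.5 and 10.4 CPM and count as 2 of the 5. The mean was 10.6 ± 1.01 CPM (SD, n = 5) against 5.88 ± 1.71 CPM (SD, n = 4), a log2 difference of 0.81 (SE 0.183), but the adjusted p was 0.0796 (edgeR), over the threshold. With DESeq2 the adjusted p was 0.00285, and that tool called 940 genes over all genes where edgeR called 63. Without fetus 4, the highest of the ET_D7 group, the adjusted p was 0.0267 (edgeR, 47 genes called in all). Leaving out that fetus widens the gap between the groups. The summed megakaryocyte and platelet markers did not overlap either, at 29.8 to 33.4 CPM in ET_D9 and 20.6 to 25.8 CPM in ET_D7, and neither did AFP, at 2.46 to 6.57 and 0.393 to 1.60 CPM (log2 difference 2.51, adjusted p = 0.0586, edgeR). Their part in the F5 values was not tested.

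F2 within the gonads was 1.84 to 3.48 CPM in ET_D7 and 2.92 to 5.38 CPM in ET_D9 (log2 difference 0.71, adjusted p = 0.141, edgeR), and the groups overlapped. SERPINC1 was the steadiest of the 6 genes in this organ (13.7%). It held 7.34 to 9.21 CPM in all 9 libraries, with a log2 difference of -0.05 between the groups and a 95% interval of -0.27 to 0.17.

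**Figure D5:**
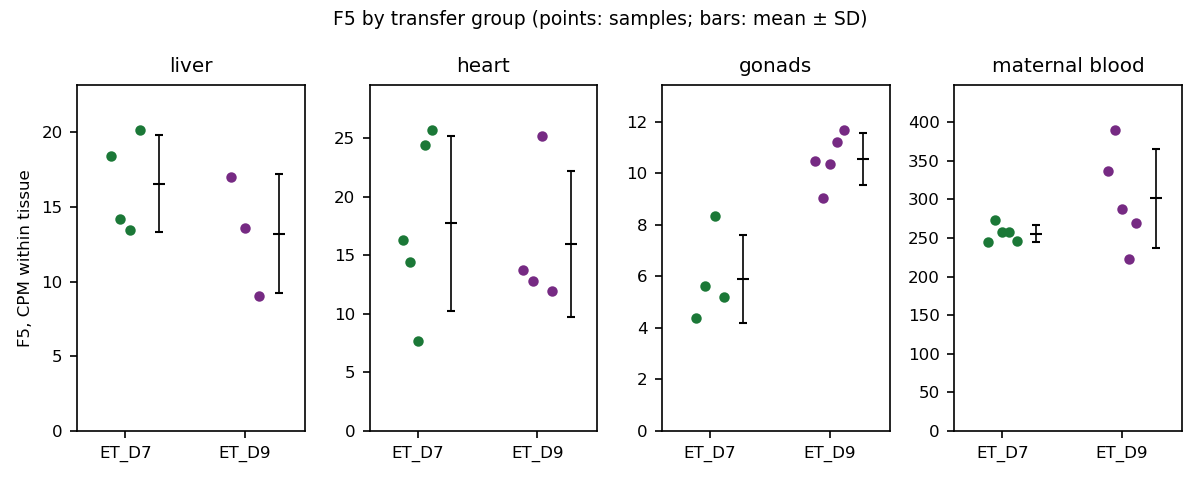
F5 level within each tissue (CPM on the y axis, scaled within the tissue and from 0) in ET_D7 and ET_D9 samples, with the mean and SD of each group beside the points. The transfer groups overlap in liver, heart and maternal blood, and in the gonads the 5 ET_D9 points (9.04 to 11.7 CPM) lie above the 4 ET_D7 points (4.39 to 8.33 CPM).

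Maternal blood was described on its own, since its libraries were made with another kit. F5 was found at 223 to 390 CPM (median 264 CPM, 6570 to 13369 counts), in all 10 heifers. SERPINC1 was present at 3.62 to 8.41 CPM and F2 at 0.277 to 3.12 CPM, with at least 98 and 10 counts in every library. F7, F9, F10 and FGA had 0 counts in all 10 libraries, and FGB, FGG and PLG held at most 10, 2 and 6 counts.

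SERPINC1 was highest in the blood libraries of fetuses 2 (8.41 CPM) and 5 (7.94 CPM), those with the cardiomyocyte markers, and was 3.62 to 6.74 CPM without them. F5 was 223 to 390 CPM with or without them. With weight and between transfer groups 0 of the 3 testable genes (F2, F5, SERPINC1) were called, by edgeR or DESeq2, and 0 had an unadjusted p under 0.05 (background 0 of 16284 genes for weight and 0 between the groups). F5 in blood was 223 to 390 CPM in ET_D9 and 245 to 273 CPM in ET_D7 (log2 difference 0.23, 95% interval -0.04 to 0.51). The difference was 0.12 without fetus 7 and 0.32 without fetus 9.

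Of the further clotting and fibrinolysis genes, PLAU and MCFD2 were those called between fetuses, both in the heart. PLAU, the urokinase plasminogen activator, had 128 to 633 counts in the 5 ET_D7 liver libraries and 0 or 1 in the 3 ET_D9 libraries. It passed the filter on low counts through the ET_D7 samples alone, so its liver values are a description with no test. Jumps of this kind were frequent in the liver, where 333 genes held 2 counts or fewer in part of the libraries and 300 or more in the rest. The heart had 1 such gene, the gonads 1 and maternal blood 2. None of the 10 members was among them. In the heart 2 of the 24 further genes tested were called with weight, which is close to the share of 6.78% over all 16250 genes. PLAU had a slope of 0.34 log2 units per 0.1 g (74 to 237 counts in ET_D7 and 195 to 441 in ET_D9), and MCFD2 had a slope of 0.45 (adjusted p = 0.0395 for both, edgeR). With the transfer group as covariate the weight slopes of PLAU and MCFD2 were no longer called in the heart (adjusted p = 0.699 for both, edgeR), and both calls were also lost without fetus 1, 2, 4, 5, 8 or 10, with adjusted p-values of 0.0653 to 0.354.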

How the data were processed

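Paired reads of organ libraries (TruSeq stranded mRNA) and maternal blood libraries (SMARTer stranded) were trimmed with Trimmomatic, mapped with STAR 2.7.0b to ARS-UCD1.3 and counted per gene with featureCounts (Subread 2.0.3) by the authors, who deposited the counts without normalization. Strand, pair and multi-mapping options are not given in the sources used here. Of low values (1 to 20), 47.2 to 87.9% per library were even numbers. If both mates of a pair were counted, which was not tested, Wilson intervals are too narrow and limits for 0 counts too low.

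Counts were tested with edgeR 4.0.16 (TMM, quasi-likelihood test, Benjamini-Hochberg over all genes) in R 4.3.3, organs together over genes with a count in any organ library, fetuses within 1 tissue over genes that reached 10 counts in 4 or more libraries. The spline of weight had 3 df. Liver libraries of fetuses 1 and 2 were averaged after the design had been fixed for 8 livers, giving 25 organ samples. Fetuses are separate animals. The same fetus pairs the organs, and the deviations of organs of 1 fetus correlated by medians of 0.13 (heart and gonads), 0.03 (heart and liver) and 0.05 (gonads and liver). Alternatives were DESeq2 1.42.0, RLE scaling, no mitochondrial genes, other filters, transfer group as covariate, the fetus as block and each fetus left out. Fits without fetus 1 or fetus 2 kept the near-equal liver library of the other. Their merged liver was removed only where the livers of both are said to be left out. Exact permutation tests used scipy 1.17.1.

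On simulated counts with 200 changed genes of mixed fold sizes, 41.0% were recovered by the liver spline, 72.5% between transfer groups in the liver and 74.0% between organs. The simulated liver changes were all larger than the liver estimates of the 10 members, so these shares do not describe changes of that size. The simulated organ test covered 19549 genes in place of 25095. Precision is limited by the number of fetuses and, for traces, by counts.

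All members are named. From the list of 33 further clotting genes, those called between fetuses, the 2 highest and 2 lowest are named, and others, chosen after their values were seen, to complete a count. Members, lists and comparisons were chosen with earlier results of these data known. Promoter sequences and transcript lengths were not used here, and a gene among those most like the members in the liver is not reported here. Gene names came from RefSeq (31630 of 35092 identifiers matched).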

Additional observations from a re-analysis of the deposited data

Results flagged for a closer look

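Of 26 groups of 4 to 10 samples examined for 1 sample far from the rest, 4 had such a sample, and chance gives about 1 in 20 groups. In the liver of fetus 10, the heaviest, there were 3.45 counts of FGB per count of FGA (next 2.43) and 0.455 counts of FGG per count of FGA (next 0.284), and both ratios share the FGA count. F7 reached 2.96 CPM within the gonads of fetus 7, where the next library held 1.27 CPM, and that library also had the highest mitochondrial share of its organ (7.23%). F2 reached 3.12 CPM in the maternal blood of fetus 8, where the next library held 0.828 CPM. No explanation was tested for these values.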

How the results depend on the processing

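The 9 members above both organs in the liver stayed 9 under every alternative but the filter of 10 counts in 8 libraries, which F9, read in 7 livers alone, could not pass (8 of 9 tested). RLE scaling moved the median log2 fold change of all genes from 0 to 0.13 in the liver against either organ, and F5 stayed below 0 over the heart. With the fetus as replicate block, the paired analysis, 9 members were again higher, of 4247 genes in place of 5781, and it changed no other call. The further clotting genes below both organs numbered 2 to 4 without each fetus in turn. FGB's share stayed above the liver's by 24.5 to 29.9 percentage points in the heart and 19.1 to 24.5 in the gonads.

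Between transfer groups in the gonads, DESeq2 called 1 member (F5) and leaving out each fetus gave 0 to 1. SERPINC1 differed there by -0.10 to 0.015 log2 units. Pearson's r of FGA with FGB was 0.74 without TMM (exact permutation p = 0.049) and 0.41 to 0.85 without each fetus, that of FGA with FGG -0.19 to 0.77, and that of FGB with FGG 0.55 to 0.89, no longer below 0.05 without fetus 3 or 4. The causes were not tested. Counts over all genes moved more than those of the members: in the liver DESeq2 called 1007 genes for the spline (277 with edgeR), 601 for the slope (258) and 857 between groups (356), and without the livers of fetuses 1 and 2 edgeR called 0, 9 and 38. Without fetus 8, 9 or 10 it called at least 531 for the spline, 164 to 179 for the slope and 251 to 260 between groups, and without fetus 3, 4 or 5 it called 0, 0 and 1 to 4. Keeping 8 livers gave 688 between groups, and no filter gave 138 for the slope. DESeq2 called 3066 genes for the slope in the heart (1101 with edgeR, 706 with no filter), 2166 between groups (8), 940 in the gonads (63, and 3 to 6 with RLE, no mitochondrial genes or no filter) and 112 and 65 in maternal blood (0). With the transfer group as covariate 0 genes had a slope in liver or heart. Leaving out each fetus moved the counts of edgeR in the heart to between 0 and 3947 for the slope and 0 and 2846 between groups (both highest without fetus 3), in the gonads to between 0 and 386 between groups (47 without fetus 4, 307 without fetus 1, and 0 to 5 without 1 of the others but fetus 9), and in maternal blood to 0 to 2 for the slope and 0 to 1 between groups. Traces in heart, gonads and blood are limited by counts and liver contrasts by 7 samples.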

Other observations

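Within the liver the genes whose level over the 7 samples was most like the mean of the 10 standardized clotting genes included ACTR3B, IRF9, COX20 and BCAP31, each with Pearson's r of 0.99. As many as 332 of the 13482 genes ranked had r above 0.9, the points share library and depth, and a likeness over 7 samples is a description only.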
